A study of Mus musculus with 14 samples.

Results

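The 10 immunoglobulin superfamily genes described here code for neuronal adhesion molecules and were followed through the NOVA CLIP and the RNA-seq libraries of mouse spinal cord. They were chosen by symbol and are the neural cell adhesion molecules Ncam1 and Ncam2, L1cam and its close homolog Chl1, and the contactins Cntn1, Cntn2, Cntn3, Cntn4, Cntn5 and Cntn6. All 10 are among the 23653 genes on which CLIP reads were counted, 9 of them have a row in the RNA-seq tables of 19215 genes, and 6 of the 13189 cassette exons listed there lie in 3 of them (Ncam1, Chl1 and Cntn6). Cntn5 has no row in the RNA-seq tables used here.

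These molecules sit on the neuronal surface, where they bind to copies of themselves or to each other on neighbouring cells and steer axon growth, bundling and the contact between axons and glia. L1CAM, CHL1 and some isoforms of NCAM1 and NCAM2 span the membrane. The contactins are held to it by a lipid anchor and signal through partners such as the contactin-associated proteins. NOVA1 and NOVA2 are neuronal RNA-binding proteins that recognise clusters of the 4-base motifs TCAT and TCAC as well as CCAT and CCAC in the transcript and regulate splicing and the use of 3′ ends.

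CLIP sequences the RNA fragments that were cross-linked to a protein in the tissue and purified with it. NOVA CLIP was made from the spinal cords of C57BL/6 mice of 3 months, in 3 groups of 4 biological replicates. In 2 of them, from the transgenic lines #6 and #17 (genotype Chat:GFP-Nova, hemizygous), GFP-tagged NOVA2 was purified with anti-GFP antibodies from pooled cords; these 8 libraries are called MN here. The transgene was a bacterial artificial chromosome with the Chat promoter, so the tag marks cholinergic cells, the motoneurons and any other cell in the cord that uses this promoter, and the mice keep their own NOVA as well. In the third group, endogenous NOVA of wild type whole spinal cord (WSC) was purified with an anti-NOVA serum, 4 libraries in all. The RNA-seq was made from the cords of 1 male and 1 female mouse of 12 weeks with the genotype Tg(SOD1)2Gur/J, a transgene of human wild-type SOD1, on a B6/SJL background. MN and WSC libraries differ in the cells, the antibody, the NOVA protein and the depth, and these cannot be told apart.

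The MN libraries held 65961 to 871804 reads (median 130534) and the WSC libraries 2213104 to 6095995. A single gene could be assigned to 74.45% to 82.57% of them. All 4 WSC libraries and 4 of the MN libraries (replicates 3 and 4 of both lines) came from 1 sequencing run by their read names, and the other 4 MN libraries from other runs. Marker levels are in CPM (reads scaled to the total of the library). The summed level of 6 motoneuron markers was 1239 to 3097 CPM in MN and 392 to 521 in WSC. Nearly all of this sum came from Slc5a7, Chodl and Chat. Slc5a7 was at 577 to 2172 in MN and 282 to 380 in WSC. Chodl was at 226 to 501 and 55.0 to 70.4, and Chat at 321 to 699 and 48.6 to 66.7. Mnx1 had no read in MN, and Slc18a3, also on the marker list, was not among the genes counted. The median of Isl1 was 3.14 in MN and 2.65 in WSC, and that of Prph was 1.57 and 2.72. Mnx1, Isl1 and Prph were not tested. The 4 markers of inhibitory interneurons summed to 99.3 to 534 in MN and 2522 to 2793 in WSC. The 3 markers of excitatory neurons summed to 0 to 214 and 831 to 890. Those of oligodendrocytes summed to 504 to 1395 and 1242 to 1545. Those of astrocytes summed to 128 to 435 and 363 to 492. Those of Schwann cells summed to 107 to 276 and 47.4 to 52.2, nearly all of it Pmp22, with Prx at 0 in MN. Those of oligodendrocyte precursors, microglia and endothelium each summed to at most 162 CPM in any library. Reads on exons made up 34.6% to 47.3% of the reads assigned to a single gene in MN and 60.9% to 66.1% in WSC. The part that these differences have in the values of the 10 genes was not tested.

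The windows of 100 nt below show the sequence under some of the NOVA reads. Each is given on the strand of the gene, from 5′ to 3′, in mm9, with every TCAT or TCAC and every CCAT or CCAC in capitals. The first 4 are the intronic windows with the most reads of Cntn2, Ncam2, Cntn5 and Cntn6, in that order on the minus, plus, minus and plus strand. The next 2 are intronic windows of Ncam1 (minus strand) and Ncam2 (plus strand) that took a larger share of the gene's reads in MN. The last 3 took a smaller share in MN: Cntn1 at its first coding exon and at a later exon (both plus strand), and an intron of Cntn5 (minus strand).
Cntn2 intron, chr1:134416001-134416100: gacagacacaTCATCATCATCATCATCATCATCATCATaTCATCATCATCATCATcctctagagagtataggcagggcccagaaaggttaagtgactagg
Ncam2 intron, chr16:81423901-81424000: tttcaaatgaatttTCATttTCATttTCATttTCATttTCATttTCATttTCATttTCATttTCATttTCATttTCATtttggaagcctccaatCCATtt
Cntn5 intron, chr9:10271701-10271800: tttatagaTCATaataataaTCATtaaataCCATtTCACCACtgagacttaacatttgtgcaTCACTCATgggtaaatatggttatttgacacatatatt
Cntn6 intron, chr6:104693601-104693700: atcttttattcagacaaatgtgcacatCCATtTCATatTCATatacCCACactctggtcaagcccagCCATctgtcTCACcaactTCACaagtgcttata
Ncam1 intron, chr9:49446701-49446800: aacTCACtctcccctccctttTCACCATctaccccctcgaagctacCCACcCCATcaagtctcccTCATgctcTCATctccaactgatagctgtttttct
Ncam2 intron, larger share in MN, chr16:81213001-81213100: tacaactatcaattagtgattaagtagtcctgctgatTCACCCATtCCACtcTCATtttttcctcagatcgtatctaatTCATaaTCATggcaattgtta
Cntn1 first coding exon, chr15:92046801-92046900: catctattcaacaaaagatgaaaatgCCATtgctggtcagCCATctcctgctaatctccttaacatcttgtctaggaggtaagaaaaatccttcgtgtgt
Cntn1 later exon, chr15:92148301-92148400: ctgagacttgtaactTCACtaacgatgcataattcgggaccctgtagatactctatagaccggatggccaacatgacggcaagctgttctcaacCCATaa
Cntn5 intron, smaller share in MN, chr9:9957601-9957700: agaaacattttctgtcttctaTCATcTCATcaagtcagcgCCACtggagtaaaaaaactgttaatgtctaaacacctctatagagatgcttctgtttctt

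The motifs were counted on the gene's strand only, and 2 occurrences may share a base. The Cntn2 window holds 14 of them, all TCAT, in a simple repeat, and the Ncam2 window holds 12, 11 of them TCAT, again in a simple repeat. The Cntn5, Cntn6 and Ncam1 windows hold 7 each. The windows with a smaller share in MN shown here hold 2, 2 and 3, but they do not stand for all such windows: the 27 windows of the 10 genes called under-represented in MN held a median of 3 motifs, the same as the 303 not called, and the 17 called over-represented a median of 4. Of the 347 windows of the 10 genes with enough reads to be tested, 96.0% hold at least 1 motif and 4.61% hold at least 7, against 93.1% and 3.87% of the 70469 windows tested in all genes. Among all 42625 windows along the 10 genes, whether or not reads fell there, the shares were 79.6% and 0.368%. The median was 3 motifs in tested windows, both of the 10 genes and of all genes, and 1 in all windows of the 10 genes.

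The first comparison asked on which of these genes NOVA reads are more or less frequent in MN than in WSC. Levels are reads on the gene body on its own strand, in CPM, with the totals over the tested genes scaled by the TMM method. They are not divided by length and are therefore compared between libraries and not between genes. Of the 10 genes, 5 were called higher in MN (Cntn5, Cntn6, Cntn3, Cntn4 and Ncam1), 0 lower and 5 neither way, by the quasi-likelihood test of edgeR at a false discovery rate (FDR) of at most 0.01 over 4578 genes. In the same test 28.1% of all genes were called higher and 29.0% lower. Of the 5 genes not called, only Chl1 was lower at an unadjusted P under 0.05, and DESeq2 also called 0 of the 10 lower and 4 higher. The median log2 fold change was 0.31 over the 10 genes and -0.02 over all genes tested. In these bulk samples, fewer cells of a type and less RNA per cell cannot be told apart.

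**Figure D1:**
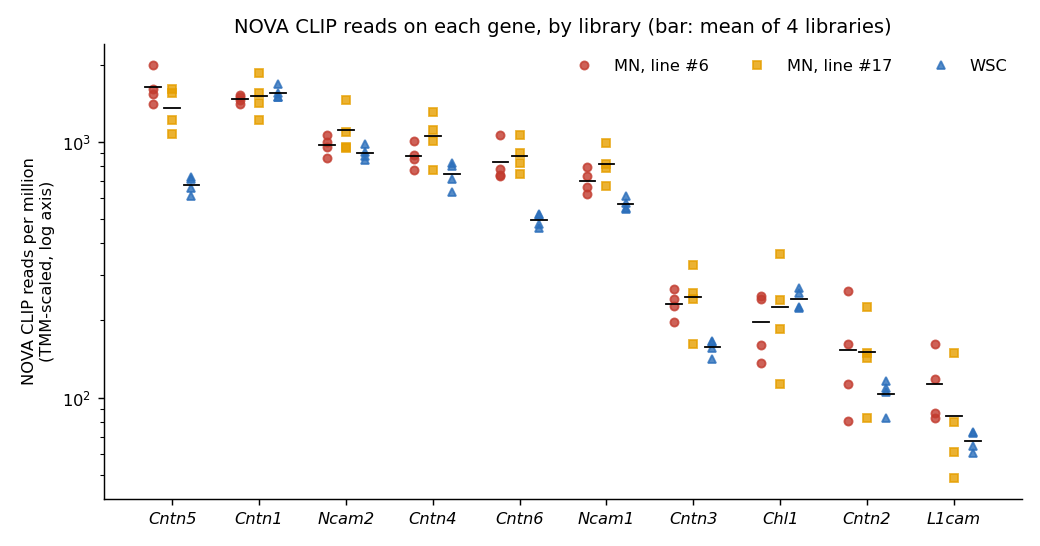
NOVA CLIP level in CPM of each of the 10 genes, on a log axis, with 1 point per library and a bar at the mean of the 4 libraries of MN line #6, MN line #17 and WSC. The MN and WSC points of Cntn5, Cntn6 and Ncam1 do not overlap, and those of the other 7 genes do. The share of all genes without overlap was not counted, so the number without overlap is a description only. In the list of 22 genes of the same pathways, 9 had no overlap either, among them Fgfr1, which had too few reads to be tested.

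Ncam1 (chr9:49310257-49607027, minus strand), the classical neural cell adhesion molecule, had 626 to 983 CPM in MN (median 761) and 552, 575, 611 and 544 in the 4 WSC libraries. Every MN library lay above every WSC library. The log2 fold change was 0.34 (SE 0.10, edgeR FDR 0.00353), a 1.26-fold higher level in MN, but it was -0.29 with reads in exons only and -0.05 with reads in introns only, neither of which was called. Ncam2 (chr16:81200942-81624530, plus strand), its paralog, had 861 to 1448 in MN (median 976) and 851 to 978 in WSC. The ranges overlapped and the gene was not called (log2 fold change 0.22, 95% interval -0.00 to 0.43, edgeR FDR 0.0728).

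L1cam (chrX:71099117-71141444, minus strand), the axonal adhesion molecule of the L1 family, had few reads, 115 in all MN libraries together and 914 in WSC. Its level was 48.4 to 162 CPM in MN (median 85.1) and 73.4, 64.5, 61.0 and 72.7 in WSC. Of the 8 MN libraries, 6 lay above the WSC range, 1 within it and 1 below it, and the gene was not called (log2 fold change 0.27, 95% interval -0.09 to 0.63, edgeR FDR 0.168). Chl1 (chr6:103460870-103699671, plus strand), its close homolog on neurites, had 113 to 363 in MN (median 212) and 226, 223, 256 and 267 in WSC. It was the only 1 of the 10 genes with a log2 fold change below -0.1 (-0.36, 95% interval -0.63 to -0.08), and it missed the threshold (edgeR FDR 0.0204).

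Cntn5 (chr9:9660891-10904775, minus strand), also known as NB-2, changed most of the 10 genes. It had 1068 to 1998 CPM in MN (median 1540) and 614, 657, 715 and 729 in WSC, so that the lowest MN library lay above the highest WSC library. The log2 fold change was 1.15 (SE 0.11, 95% interval 0.92 to 1.39, edgeR FDR 1.74e-09), a 2.23-fold higher level. Cntn6 (chr6:104442784-104813400, plus strand), also known as NB-3, had 732 to 1060 in MN (median 801) and 459, 478, 515 and 521 in WSC, again without overlap. It was 1.73-fold higher on the whole gene (log2 fold change 0.79, SE 0.10, edgeR FDR 1.69e-07). With reads in introns only, scaled on their own, the log2 fold change was -0.02.

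Cntn3 (chr6:102113300-102414661, minus strand), also known as BIG-1, had 161 to 329 CPM in MN (median 243) and 141, 156, 165 and 166 in WSC. Only the lowest MN library, line #17 replicate 3, fell within the WSC range. The gene was 1.51-fold higher (log2 fold change 0.60, SE 0.11, edgeR FDR 5.19e-05). With reads in introns only, scaled on their own, it was at -0.24 and was not called. Cntn4 (chr6:105627654-106649304, plus strand), also known as BIG-2, had 774 to 1306 in MN (median 945) and 638, 716, 806 and 827 in WSC, with 2 MN libraries inside the WSC range. Its log2 fold change of 0.36 (SE 0.12, edgeR FDR 0.00842) turned to -0.46 with introns only, scaled on their own. That call of Cntn4 was lost without any 1 of the 4 WSC libraries (edgeR FDR 0.0137 to 0.0737) and without MN line #6 replicate 1 or 2 or line #17 replicate 2 or 4 (edgeR FDR 0.0101 to 0.0239). Ncam1 lost its call without WSC replicate 1, 2 or 4 (edgeR FDR 0.0167 to 0.0241). Within the 1 sequencing run shared by 4 MN and 4 WSC libraries, Cntn5, Cntn6 and Cntn3 were called higher and Chl1 was called lower (log2 fold change -0.53, edgeR FDR 0.00103), while Cntn4 (edgeR FDR 0.0627) and Ncam1 (edgeR FDR 0.0446) were not called.

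Cntn1 (chr15:91881596-92172398, plus strand), the contactin of nodes and paranodes and the gene with the most NOVA reads of the 10 (2096 in MN and 21237 in WSC), had 1209 to 1859 CPM in MN (median 1476) and 1495, 1500, 1546 and 1675 in WSC. The WSC values lay within the MN range and the log2 fold change was -0.07 (95% interval -0.28 to 0.13, edgeR FDR 0.517). Cntn2 (chr1:134406002-134439517, minus strand), also known as TAG-1 and found where axons touch myelinating glia, had 80.7 to 260 in MN (median 146) and 83.1 to 116 in WSC. It was not called either (log2 fold change 0.23, 95% interval -0.17 to 0.63, edgeR FDR 0.304). The MN range of Cntn2 was broad, on 7 to 53 reads per library.

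**Figure D2:**
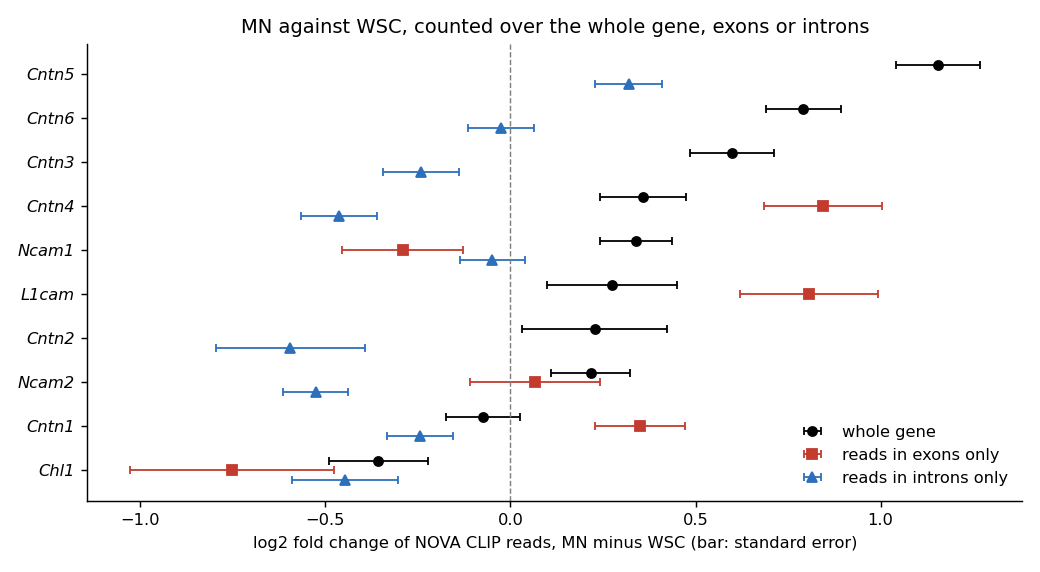
Log2 fold change of NOVA CLIP reads, MN minus WSC, with bars of 1 standard error, counted over the whole gene (black circles), in exons only (red squares) and in introns only (blue triangles), each scaled on its own reads. Cntn5 lies at 1.15 on the whole gene and at 0.32 in introns, and Cntn4 lies at 0.36 on the whole gene, 0.84 in exons and -0.46 in introns.

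The split of the reads between exons and introns differed both between the genes and between MN and WSC. The long genes of contactins 3 to 6 (301 to 1244 kb) had nearly all of their reads in introns. Exons held 0.670% of the pooled MN reads of Cntn5 and 1.18% of its WSC reads, and 1.13% and 3.18% for Cntn6. At the other end, exons held 77.4% and 90.4% of the reads of L1cam (42.3 kb) and 56.9% and 73.8% of those of Cntn1 (291 kb). The pooled share was lower in MN in each of the 10 genes, as it was over the reads of all genes (median 38.7% in MN and 63.5% in WSC). How many single genes share this direction was not counted. The gaps were widest for Chl1 (24.7% against 56.1%) and Ncam1 (15.5% against 39.4%). They were small for Cntn2 (20.7% against 23.7%, on 34 MN exon reads) and Cntn3 (2.62% against 3.03%, on 9).

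The test was therefore repeated on reads in exons only and in introns only, each scaled on its own reads, which shifted the median of the log2 fold changes of all genes by 0.44 and -0.41. The shift with introns only was larger for Cntn5 (1.15 to 0.32), Cntn6 (0.79 to -0.02) and Cntn3 (0.60 to -0.24). Nearly all reads of these genes lie in introns, so nearly the same reads were put on another scale. Their lower values with introns only therefore do not show that intron reads moved apart from the gene. With exons only, 6 of the 10 genes had enough reads; L1cam (0.81, SE 0.19, edgeR FDR 7.34e-04) and Cntn4 (0.84, SE 0.16, edgeR FDR 9.11e-05) were called higher and 0 lower. Of the other 4, Cntn1 was at 0.35 (edgeR FDR 0.0154), Ncam2 at 0.07, Ncam1 at -0.29 and Chl1 at -0.75, the last at an edgeR FDR of 0.0220. The background with exons only was 23.8% of genes higher and 24.4% lower. With introns only, 9 genes were tested (not L1cam), and Cntn5 was called higher (0.32, SE 0.09, edgeR FDR 0.00496) while Ncam2 (-0.53, SE 0.09, edgeR FDR 1.14e-05) and Cntn4 (-0.46, SE 0.10, edgeR FDR 4.56e-04) were called lower. The other 6, from Cntn6 (-0.02) to Cntn2 (-0.59, edgeR FDR 0.0184), were not called, and the background was 12.7% higher and 14.5% lower. Cntn5 was the only 1 of the 10 genes called higher both on the whole gene and in introns, and Cntn4 was called in opposite directions in exons and introns. Exons held 7.16% of the MN reads of Cntn4 and 8.68% of its WSC reads. Its opposite calls, each on its own scale, therefore do not show that exon and intron reads of the gene moved apart.

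The 2 transgenic lines were compared with each other to see the spread between founders. Of the 10 genes, 9 had enough reads (not L1cam), and edgeR called 0 of them at an FDR of at most 0.01, against a background of 0.0% (0 of 2086 genes). None of the 9 reached an unadjusted P under 0.05, as 73 of the 2086 genes (3.5%) did, and DESeq2 also called 0. Cntn5 was at 1635 ± 256 CPM in line #6 and 1356 ± 259 in line #17 (SD, n = 4 each), with a log2 difference of 0.19 (95% interval -0.13 to 0.51). Cntn4 was at 881 ± 95.9 and 1050 ± 221, with a log2 difference of -0.31 (95% interval -0.65 to 0.03). These intervals leave room for differences of the size seen between MN and WSC for Cntn4, but not for Cntn5.

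The second comparison asked where along each gene the reads lie. Windows of 100 nt were tested against the other windows of the same gene with diffSpliceDGE of edgeR, so that a change of the gene as a whole does not count. They needed at least 30 reads over the 12 libraries and reads in at least 4 MN or 2 WSC libraries. They were called at an FDR of at most 0.1 and a change of at least 2-fold. Of the 37951 reads in the tested windows of the 10 genes, 34659 were from WSC. The filter therefore favours windows that are high in WSC, and those with reads in fewer than 4 MN libraries passed only through WSC. The same filter was used in all genes. In the 10 genes 347 windows were tested, 237 in introns, 86 in 3′ UTRs, 23 in coding exons and 1 in a 5′ UTR. Of these, 17 were over-represented in MN and 27 under-represented, while over all genes 5.83% and 5.86% were. Over-represented windows were 15 in introns and 2 in 3′ UTRs. Among the under-represented windows were 12 in introns, 9 in coding exons, 5 in 3′ UTRs and 1 in a 5′ UTR. Over all genes, mostly exonic windows were over-represented in 3.25% and under-represented in 6.78% of cases, and the other windows in 12.3% and 3.56%. When exonic windows were compared only with each other, 3 of the 108 in the 10 genes were over-represented and 7 under-represented, against 3.16% and 2.8% of all. Among intronic windows alone, 5 of 236 were over-represented and 12 under-represented, against 2.46% and 4.67%.

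**Figure D3:**
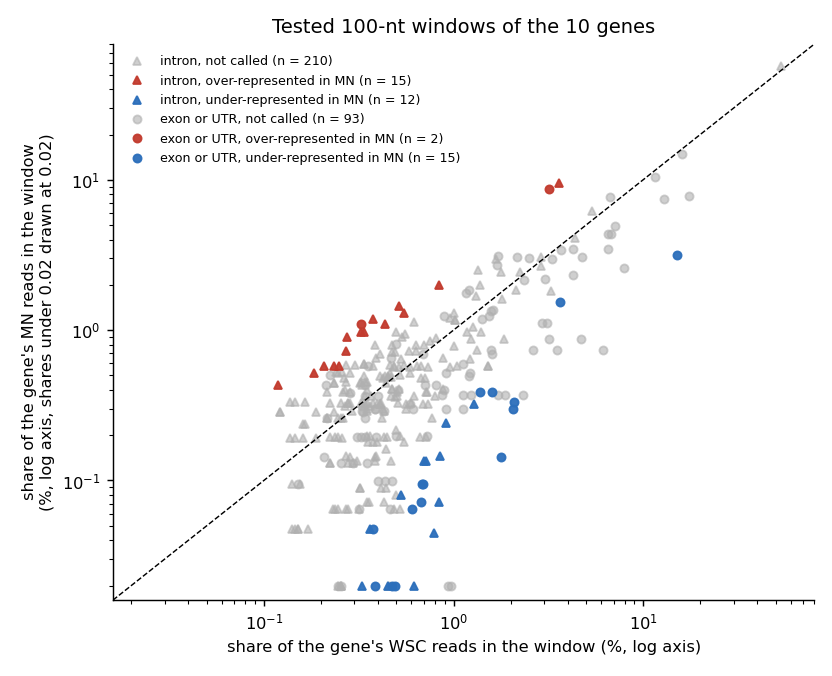
Share of a gene's MN reads against the share of its WSC reads in each of the 347 tested windows of the 10 genes, in percent on log axes, with triangles for introns and circles for exons and UTRs, and with over-represented windows in red and under-represented ones in blue. The dashed line marks equal shares; the point at the top right is the Cntn2 intron window, with 56.7% of the MN and 53.5% of the WSC reads.

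Cntn1 had the most under-represented windows, 9 of 63, with 3 over-represented. They include adjoining windows at the start of its coding sequence. The window chr15:92046801-92046900, shown above, covers 61 nt of coding sequence, 17 nt of 5′ UTR and 22 nt of intron; it had 91, 151, 88 and 49 reads in the WSC libraries and 3 reads in MN, in 3 of 8 libraries (log2 fold change -3.42, SE 0.54, edgeR FDR 1.53e-07). The adjoining window before it, with 54 nt of 5′ UTR, had 443 reads in WSC and 7 in MN (log2 fold change -2.46, SE 0.42, edgeR FDR 3.09e-06). The window chr15:92148301-92148400, 53 nt of coding exon and 47 nt of intron, had 22, 42, 31 and 10 reads in WSC and 0 in MN. With 3 reads taken as the limit that 0 allows over the MN libraries together, its share of the gene's reads was at least 3.45-fold lower in MN. All 3 of these were also called when only exonic windows were compared with each other. Those with 3 and 0 reads in MN had passed the filter only through their WSC reads. The most read window of the 10 genes, in the 3′ UTR of Cntn1, held 7.40% of the MN and 12.9% of the WSC reads of the gene, a difference under 2-fold (log2 fold change -0.67, SE 0.18, edgeR FDR 0.00791).

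Ncam1 had 5 over-represented and 3 under-represented windows of 45. The 3′ UTR window chr9:49310301-49310400 held 3.18% of the gene's MN reads (32 reads, in 8 of 8 libraries) and 15.1% of its WSC reads (1212), a log2 fold change of -1.70 (SE 0.26, edgeR FDR 3.78e-08). Among exonic windows alone it was at -0.74 (edgeR FDR 0.105) and was not called. The intronic windows over-represented in MN included chr9:49446701-49446800, shown above, with 20 reads in MN and 67 in WSC (log2 fold change 1.71, SE 0.42, edgeR FDR 0.00263), and chr9:49359601-49359700, with 12 and 30 (log2 fold change 2.20, SE 0.55, edgeR FDR 0.00381). Among intronic windows alone neither was called (0.59 and 1.10), and the second was not called within the shared sequencing run (edgeR FDR 0.424). Thus the windows named here were called only where introns and exons were compared with each other.

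Ncam2 had 3 over-represented and 4 under-represented windows of 89. The intronic windows chr16:81213001-81213100 (20 reads in MN and 69 in WSC, log2 fold change 1.64, edgeR FDR 0.00407) and chr16:81529201-81529300 (15 and 41, log2 fold change 1.94, edgeR FDR 0.00390) were also called among intronic windows alone (1.43 and 1.71). The first of them, 11788 nt from the nearest exon, lost its call without MN line #17 replicate 2 (edgeR FDR 0.104) and within the shared sequencing run (edgeR FDR 0.173). A 3′ UTR window with 6 reads in MN and 201 in WSC was at -1.65 (edgeR FDR 0.0222) and at -0.58 among exonic windows alone, where it was not called. Its MN reads came from 3 libraries, so it had passed the filter only through WSC. The most read intronic window of Ncam2, the TCAT repeat shown above, had 15 and 175 reads and was not called.

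In L1cam 2 of 10 windows were over-represented and 0 under-represented. One lies in the 3′ UTR (10 reads in MN and 29 in WSC, log2 fold change 1.53, edgeR FDR 0.0811) and was also called among exonic windows alone; the other, chrX:71110301-71110400, lies in an intron (11 and 33, log2 fold change 1.53, edgeR FDR 0.0634). The 3′ UTR call was lost without any 1 of MN line #6 replicates 3 and 4, MN line #17 replicates 1, 2 and 4 and WSC replicates 2, 3 and 4 (edgeR FDR 0.102 to 0.565). The intron call was lost without MN line #6 replicate 2, 3 or 4 or WSC replicate 3 or 4 (edgeR FDR 0.116 to 0.191). In Chl1 none of 19 windows was called, with 2 at an unadjusted P under 0.05, both in its 3′ UTR and in opposite directions (log2 fold change -1.66 and 1.95). The windows of Chl1 lie mostly in the 3′ UTR, 16 of 19.

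Cntn2 stood apart in how concentrated its reads were. The intronic window chr1:134416001-134416100, 185 nt from the nearest exon, took 93 of the gene's 164 MN reads and 740 of its 1382 WSC reads. The 8 MN libraries had 4 to 32 reads there, and the 4 WSC libraries 159, 199, 259 and 123. Its share was 56.7% and 53.5%, with a log2 fold change of -0.07 (SE 0.22, edgeR FDR 0.889). None of the 6 windows of Cntn2 was called and none reached an unadjusted P under 0.05. The next window of the gene held 3.05% of the MN and 4.78% of the WSC reads.

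In the long contactin genes the reads were spread thinly over introns. The tested windows held 8.30% of all CLIP reads of Cntn3, 17.1% of those of Cntn5, 20.2% of those of Cntn4 and 35.3% of those of Cntn6, against 77.9% for Cntn1. None of the 4 windows of Cntn3 was called or reached an unadjusted P under 0.05. Cntn5 had 1 over-represented and 3 under-represented windows of 30. The most strongly changed, chr9:9957601-9957700 shown above, had 74 reads in WSC and 1 in MN (log2 fold change -3.71, SE 0.82, edgeR FDR 9.22e-04), in the gene that as a whole was higher in MN. Its size rests on that 1 read, which came from MN line #6 replicate 3: the log2 fold change was -6.87 without that library and -2.86 without MN line #17 replicate 4, the highest and lowest size when 1 library was left out. The most read window of Cntn5 held 6.16% of the MN and 5.40% of the WSC reads and was not called. Cntn6 had 2 over-represented windows of 43 (18 reads in MN and 35 in WSC in chr6:104701101-104701200, log2 fold change 1.43, edgeR FDR 0.0275) and 4 under-represented ones. Of these, chr6:104677201-104677300 had 7, 13, 11 and 11 reads in WSC and 0 in MN, at least 2.55-fold lower as a share. Cntn4 had 1 over-represented window of 38 (10 reads in MN and 28 in WSC, log2 fold change 1.77, edgeR FDR 0.0394) and 4 under-represented ones, among them an intronic window with 1 read in MN and 86 in WSC (log2 fold change -2.92, edgeR FDR 0.0286), which ranged from -5.91 to -2.18 when 1 library was left out and was most negative without the library of that read, MN line #17 replicate 2. Both Cntn4 windows and that of Cntn6 with 18 MN reads lost their call without MN line #17 replicate 4, the deepest MN library (edgeR FDR 0.267, 0.147 and 0.254). The windows with 1 MN read in Cntn5 and none in Cntn6 kept their calls within the shared sequencing run and in every leave-one-out fit that could test them. Both, like the Cntn4 window with 1 MN read, had passed the filter only through their WSC reads.

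Other genes of the same pathways were followed from a list of 22, of which 18 had enough reads. Of these, 9 were called higher in MN, 3 lower and 6 neither way, with a median log2 fold change of 0.38, against 28.1% higher and 29.0% lower and a median of -0.02 over all genes tested. Both L1 family relatives, Nrcam (0.42) and Nfasc (0.49), were higher on the whole gene. Nrcam was called neither in exons (-0.32, edgeR FDR 0.0356) nor in introns (0.20, edgeR FDR 0.0660), and Nfasc was called higher in exons (1.09) and was at -0.02 in introns. Of the 6 contactin-associated proteins tested, which bind contactins in cis, 3 were higher and 1 lower. Cntnap2, the partner of CNTN2, was at 1.16 (SE 0.13, edgeR FDR 1.01e-08) on the whole gene and at 0.43 in introns, but at -0.95 in exons (edgeR FDR 1.83e-05). Cntnap5c was at 1.20 (SE 0.10, edgeR FDR 1.15e-10). Cntnap1, the partner of CNTN1 at paranodes, was lower at -1.32 (SE 0.19, edgeR FDR 7.19e-07), on 64 MN reads.

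Of the 3 receptor phosphatases that bind contactins, Ptprg was called higher on the whole gene (0.64) but neither in exons (0.11, edgeR FDR 0.639) nor in introns (-0.0039, edgeR FDR 0.981). The other two, Ptprz1 and Ptpra, were not called on the whole gene, and Ptprz1 was called lower in introns (-0.56, edgeR FDR 5.70e-04). Among the partners and enzymes of NCAM and L1, 3 of the 7 tested were higher and 2 lower. Nrp1, a coreceptor of L1CAM for semaphorins, changed most of the list (1.79, SE 0.14, edgeR FDR 4.29e-11), with 130 to 211 CPM in MN and 36.4 to 59.4 in WSC. Gfra1, a GDNF receptor that also binds NCAM, was at 1.25 (SE 0.16, edgeR FDR 1.20e-07). It was also called higher in exons (1.12) and in introns (1.03). Ank3 was lower at -0.66 (SE 0.10, edgeR FDR 2.22e-06) and was also called lower in exons (-1.04) and in introns (-1.04). St8sia4, which adds polysialic acid to NCAM, was lower at -0.97 (SE 0.24, edgeR FDR 8.11e-04), with 0 to 44.4 CPM in MN and 50.4 to 60.3 in WSC. It was not called with line #17 against WSC only (-0.66, edgeR FDR 0.0591), and it had enough reads to be tested in 6 of the 12 fits that left out 1 library, in each of which it was called. With exons only, 3 of 10 of the listed genes were higher and 3 lower, against 23.8% and 24.4% of all genes. With introns only, 4 of 16 were higher and 3 lower, against 12.7% and 14.5%. The sign differed from that on the whole gene for 3 of 10 genes in exons (Nrcam, Cntnap2 and App) and for 8 of 16 in introns (Nfasc, Cntnap4, Cntnap5a, Ptprz1, Ptprg, Ptpra, Fyn and App). Of these, Fyn went from 0.56, called higher, to -0.21, not called in introns, and Cntnap5a, not called on the whole gene at 0.21, was called lower in introns (-0.50, edgeR FDR 1.56e-04).

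Over the 12 CLIP libraries, the genes whose log2 level followed that of Cntn5 most closely were Cntnap2 (Pearson r 0.991), Faf1 (0.984) and Rgs7 (0.981), out of 4577 genes compared. For Cntn1 they were Igfbp4 (0.928), Rnf146 (0.899) and Vps35 (0.886). The libraries form 2 sets that differ in source and depth, so that genes that differ in the same way between MN and WSC have a high r, and the values are a description.

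RNA levels in WSC were taken as RPKM, reads scaled to exon length and library total, from 72006019 reads on genes in the male and 65625173 in the female library. Cntn1 was highest with 74.7 RPKM in the male and 70.8 in the female library (72.8 ± 2.77, SD, n = 2), followed by Ncam1 with 61.6 and 56.8 (59.2 ± 3.39), Cntn2 with 41.3 and 38.6 (40.0 ± 1.94) and L1cam with 30.4 and 23.7 (27.0 ± 4.71). Chl1 had 22.9 and 24.8 (23.9 ± 1.37) and Ncam2 20.1 and 22.4 (21.2 ± 1.61). Cntn6 had 11.5 and 10.4, Cntn4 had 10.1 and 11.1, and Cntn3 was lowest with 3.63 and 3.04. L1cam and Chl1 could not be ordered beyond their spread, nor could Cntn6 and Cntn4, whereas the values of all other neighbours in the order did not overlap.

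**Figure D4:**
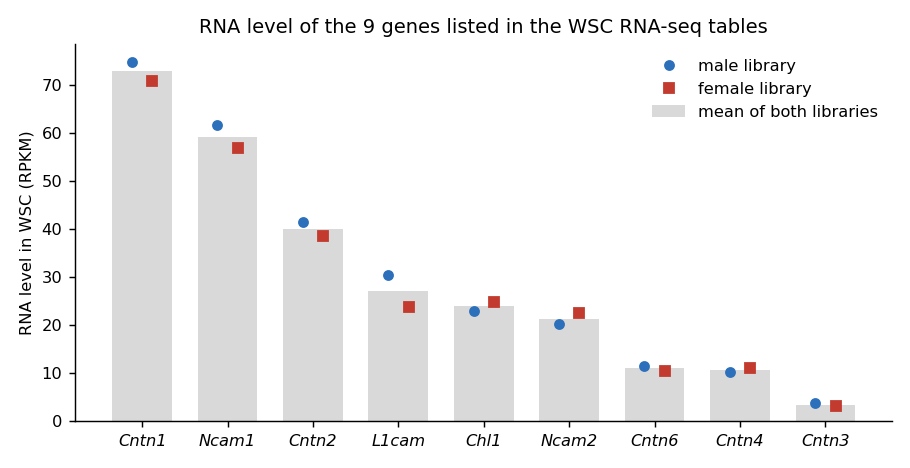
RNA level in WSC, in RPKM, of the 9 genes listed in the RNA-seq tables, with a circle for the male and a square for the female library and a grey bar from 0 to the mean of both. Cntn1 is at 72.8 and Cntn3 at 3.33 RPKM.

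The contactins thus held both the first and the last place among the 9 genes. The male and female library differed by less than 1.5-fold in each of the 9 genes, and 3.49% of the 11940 genes with a mean of at least 1 RPKM differed by more. L1cam, which is on the X chromosome, had the widest ratio, 1.28-fold higher in the male library. With 1 library of each sex there is no replicate check and no test.

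**Figure D5:**
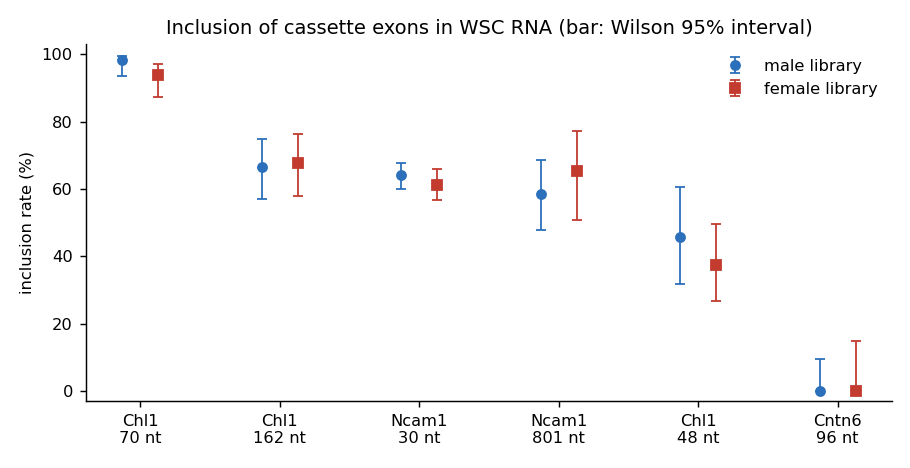
Inclusion rate, in percent, of the 6 cassette exons of Chl1, Ncam1 and Cntn6 in WSC RNA, named by gene and length, with a circle for the male and a square for the female library and bars for the Wilson 95% interval. The Chl1 exon of 70 nt is at 98.1% and 93.9%, the Cntn6 exon at 0% in both libraries, and the other 4 lie between 37.5% and 67.7%.

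Cassette exons are internal exons that a transcript includes or skips. The reads of the 2 inclusion junctions were averaged, and the inclusion rate is this average as a share of itself and the skipping reads together, with Wilson 95% intervals that cover counting error only. The sequences of the short exons of Ncam1 and Chl1 are shown because both are of a length divisible by 3 and were included in part of the transcripts. Each is given in mm9 with its flanking intron, 5′ to 3′ on the gene's strand (minus for Ncam1, plus for Chl1), with the cassette exon in capitals.
Ncam1 exon of 30 nt, chr9:49358610-49358709: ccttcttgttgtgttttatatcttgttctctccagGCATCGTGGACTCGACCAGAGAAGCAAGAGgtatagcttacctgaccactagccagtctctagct
Chl1 exon of 48 nt, chr6:103616888-103616987: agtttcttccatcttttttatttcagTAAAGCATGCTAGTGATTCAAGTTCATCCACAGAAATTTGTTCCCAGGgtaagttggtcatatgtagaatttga

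The Ncam1 exon of 30 nt (chr9:49358645-49358674), known as the VASE exon, falls inside an immunoglobulin domain of NCAM1. It is not an exon of the annotation used here (GENCODE vM1), its length is divisible by 3, and AG and GT stand before and after it. It was included in 64.0% (95% interval 60.1% to 67.7%) of transcripts in the male and 61.3% (56.6% to 65.8%) in the female library. The Ncam1 exon of 801 nt (chr9:49314958-49315758, coding), which lengthens the cytoplasmic part of the protein, was included in 58.6% (47.9% to 68.5%) and 65.2% (50.8% to 77.3%). Its inclusion junctions were uneven, with 76 and 23 reads in the male and 49 and 11 in the female library, and 655 and 489 further reads lay in the exon body. When the reads of both junctions and of the exon body were summed instead, its rate was 96.4% and that of the exon of 30 nt, which had 2 and 0 body reads, was 77.1%. Skipping reads were found for both Ncam1 exons, 217 and 165 for that of 30 nt and 35 and 16 for that of 801 nt.

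The coding Chl1 exon of 48 nt (chr6:103616914-103616961) was included in 45.9% (31.9% to 60.6%) and 37.5% (26.7% to 49.8%). Its inclusion junctions were uneven, with 34 and 5 reads in the male and 41 and 7 in the female library, so that this rate rests largely on 1 of them. The coding Chl1 exon of 162 nt (chr6:103664439-103664600) was included in 66.5% (57.0% to 74.8%) and 67.7% (57.8% to 76.2%). The other exons lie in 5′ UTRs. The Chl1 exon of 70 nt (chr6:103510040-103510109) was included in 98.1% and 93.9%. The Cntn6 exon of 96 nt (chr6:104497622-104497717) had 0 inclusion reads against 36 and 22 skipping reads, which allows an inclusion of up to 8.33% and 13.6%.

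The male and female libraries gave overlapping intervals for each of the 6 exons. Two-sided Fisher's exact tests compared skipping reads with the sum of both inclusion junctions and exon body reads, not with the averaged junctions behind these rates. They called 0 of 6 at an FDR of at most 0.1, with a smallest unadjusted P of 0.148 (Ncam1 exon of 801 nt). Of the 9396 exons with at least 10 junction reads in each library, 4.26% were called. This compares 2 libraries and not the sexes.

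NOVA reads near these exons were few. Within the exon and 400 nt on either side, the Ncam1 exon of 30 nt had 7 reads in MN and 24 in WSC, 16 of the latter downstream of the exon. The Ncam1 exon of 801 nt had 4 and 70, with 69 of the WSC reads in the exon itself. The Chl1 exon of 48 nt had 2 and 31 (20 in the exon and 11 upstream), and that of 162 nt 2 and 35. The Chl1 exon of 70 nt had 0 and 3, and the Cntn6 exon 1 and 8. At the depth of the MN libraries, no difference between MN and WSC could be read at any of the 6 exons.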

How the data were processed

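NOVA CLIP reads and poly(A)-selected RNA-seq reads of mouse spinal cord were analysed from the files the authors deposited. Per the labels, CLIP reads were mapped with Novoalign to mm9 (the label of MN line #6 replicate 2 also lists mm10, but its reads lie at mm9 positions). The deposited CLIP files hold 1 filtered read per line with its position and a score, which was not used. For RNA-seq, the authors deposited read counts and RPKM per gene and read counts per cassette exon, joined here by NCBI gene ID. By the study's methods, RNA-seq reads without an unambiguous position had been left out.

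CLIP reads were counted on genes of GENCODE vM1 (NCBIM37, the same build as mm9) when they lay on 1 gene on its strand, and in 100-nt windows. Counts were tested with edgeR 4.0.16 (TMM, filterByExpr, quasi-likelihood, Benjamini-Hochberg FDR of at most 0.01 per gene and 0.1 per window), and DESeq2 1.42.0 was an alternative. RNA levels were compared as log2(RPKM + 0.1) among genes with a mean of at least 1 RPKM. The scripts were tested on simulated data.

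The 10 genes and the pathway and marker lists were chosen with earlier results of these data known. All 10 genes were named, with up to 6 of the pathway list by the largest change past the FDR, up to 3 called windows per gene by the smallest P value, every cassette exon that both libraries covered with no fewer than 10 junction reads, and the 3 genes most like Cntn1 and Cntn5; other genes and windows in the text were named after their values were seen. Deviations of CLIP libraries with the same replicate number correlated at 0.0515 to 0.189 between the MN lines and at -0.0679 to 0.0553 between MN and WSC, so the numbers were not taken to pair the samples. P values cover the spread between these libraries.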

Additional observations from a re-analysis of the deposited data

Results flagged for a closer look

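The level of Cntn6 in MN line #6 replicate 1 was 1060 CPM, against 732, 742 and 780 in the other 3 libraries of that line, a gap that takes 0.855 of the group's range and exceeds Dixon's 95% limit for 4 libraries. It was the only 1 of 30 groups (10 genes in 3 groups of 4 CLIP libraries) past this limit, and chance alone gives about 1 in 20. Cntn6 was called higher in MN without this library as well.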

How the results depend on the processing

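The count of 5 genes called higher and 0 lower became 2 and 2 with no filter on low counts (the share of higher among all calls then was 30.1% instead of 49.2%, and the median of all genes moved by -0.22), 2 higher with exons only, 1 and 2 with introns only, 3 with line #6 only, 3 with line #17 only, and 3 and 1 in the shared sequencing run, an alternative chosen after seeing the data. With reads in tested windows only, 1 was lower (median of all genes moved by 0.28). Leaving out 1 library gave 3 to 5 higher (3 without WSC replicate 1, 2 or 4) and 0 to 1 lower (Chl1, without MN line #17 replicate 1). With the replicate block, 4 were higher, Cntn4 losing its call. The sign turned with no filter for Ncam2 (-0.052) and Cntn2 (-0.015); with exons only for Ncam1 (-0.29) and Cntn1 (0.35); with introns only for Ncam1 (-0.048), Ncam2 (-0.53), Cntn2 (-0.59), Cntn3 (-0.24), Cntn4 (-0.46) and Cntn6 (-0.024); and for Cntn1 with reads in tested windows (0.28) or identical reads counted once (0.033). For Cntn3, Cntn4 and Cntn6, introns hold nearly all reads, so nearly the same reads turned sign on another scale. Between the lines, the sign turned for Cntn2 with the replicate block (-0.082) and without 1 library (-0.37 to 0.32), and for Cntn1 without 1 library (-0.12 to 0.045). Of the pathway list, 3 were higher with exons only and 4 with introns only, and the sign turned for 3 of 10 genes with exons only, Cntnap2 (-0.95) among them, and for 8 of 16 with introns only.

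The 17 over-represented and 27 under-represented windows became 7 and 16 with at least 60 reads, 3 and 7 among exonic and 5 and 12 among intronic windows alone (both chosen after seeing the data), and 30 and 17 by Fisher's exact test on pooled reads. Under-represented windows were 17 with the replicate block and 13 in the shared run. Leaving out 1 library gave 10 to 18 over-represented (10 without MN line #17 replicate 4 or WSC replicate 2) and 14 to 28 under-represented (14 without MN line #17 replicate 4). The cause of these changes was not tested. The replicate block changed no other count of calls by over 1.5 times. The reads of both junctions and of the exon body were also summed instead of the junctions averaged. Their share was 96.4% for the Ncam1 exon of 801 nt, 77.1% for that of 30 nt, 58.7% for the Chl1 exon of 48 nt and 87.9% for that of 162 nt. These shares are not corrected for exon length or the number of junctions and are not inclusion rates. The MN depth limits what could be read from windows and exons.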
